A study of Homo sapiens with 18 samples.

Results

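The genes described here encode the enzymes of cholesterol and fatty acid synthesis, together with the factors that control them. They were taken by name, as the table entries whose gene symbol was on a list of 33 members, and all 33 were found among the 25296 genes of the table and passed the filter on low counts. The members were 18 sterol enzymes, 8 fatty acid and lipid enzymes, 4 regulators and 3 genes of sterol transport and uptake control. They were measured in U2OS, an established human osteosarcoma line, by RNA sequencing of 18 libraries. Of the 3 lines, EV carried the empty retroviral vector MigR1, WT carried the vector with wild-type DNMT3A, and MUT carried it with a mutant DNMT3A. DNMT3A is a DNA methyltransferase, and the series text names the substitution R882C where the sample labels name R882H. RNA was taken from every line without drug and 24 h into treatment with 10 µM cytarabine (Ara-C), a nucleoside analogue that stalls DNA replication, which makes 6 groups, with 3 biological replicates per group. Cells without drug are labelled untreated, and the series text describes them as a vehicle control. Nothing in the labels says whether a line is a clone or a pool, and the endogenous DNMT3A gene was present in all of them.

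Cholesterol is made from acetyl-CoA by the mevalonate pathway, which yields isoprenoids, squalene and then, through a series of demethylations and reductions, cholesterol. Fatty acids are made from the same acetyl-CoA by carboxylation, chain synthesis, elongation and desaturation. Both sets of genes are targets of the sterol regulatory element-binding proteins, made from SREBF1 and SREBF2. These precursors are held in the endoplasmic reticulum by INSIG proteins when sterols are plentiful and carried to the Golgi by SCAP for cleavage when sterols are scarce, the SREBF2 product acting mainly on sterol genes and the SREBF1 product mainly on fatty acid genes.

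Library totals ran from 15.4 to 21.9 M estimated counts, and no member had fewer than 51 counts in any library. DNMT3A, the introduced gene, was at 26.2 to 27.5 CPM in untreated EV, 129 to 139 CPM in untreated WT and 254 to 615 CPM in untreated MUT. CPM here are counts per 1000000 counts of the TMM-scaled library. The untreated MUT libraries stood apart from one another: the biological coefficient of variation within that group was 0.216 over all genes tested, against 0.0398 to 0.133 in the other 5 groups, and DNMT3A was 499.7, 615 and 254 CPM in its replicates 1, 2 and 3. For the cytarabine effect in MUT, called values that moved by over 1.5 times, and calls gained or lost, when one of these libraries was left out are given with each gene, and for the comparisons of lines they are given as counts. Of the 24 members that passed the test of cytarabine in MUT, all but TM7SF2, ELOVL6 and MYLIP did so with each of the 3 left out in turn. Of 12 osteoblast and mesenchymal markers, 8 were tested, and their summed level was 3730 to 4210 CPM in untreated and 2720 to 3210 CPM in treated libraries, while TWIST1, SP7 and IBSP were not among the genes of the table. Markers of other cell types were low, but some moved with treatment. The 5 blood markers summed to 1.64 to 3.14 CPM in untreated and 5.85 to 9.8 CPM in treated libraries, of which CD34 made up 4.32 to 8.66 CPM in the treated ones. The 4 epithelial markers summed to 2.22 to 6.02 CPM untreated and 3.78 to 9.61 CPM treated, and the 2 endothelial markers to 0.539 to 3.15 CPM and 1.35 to 6.46 CPM. Hepatocyte and adipocyte markers reached 1.27 and 0.245 CPM. The part of these genes in the results was not tested. In bulk RNA, a change in the make-up of a population and a change in the level per cell cannot be told apart.

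Promoter sequence is shown for 6 members because these genes are textbook targets of a shared set of factors, and the letters show which of the known control elements they have in common. Of the 33 members, 29 matched a promoter in the RefSeq table for GRCh38.p14, and the 250 bases before each RefSeq start were searched on both strands for CCAAT (read as ATTGG on the other strand), for GGGCGG, for TCACNCCAC, a form of the sterol regulatory element, and for its first 8 letters TCACNCCA, which every TCACNCCAC also contains. HMGCS1 lies at chr5:43313413-43313662 (minus strand), MVK at chr12:109573544-109573793 (plus), NSDHL at chrX:152830813-152831062 (plus), SREBF2 at chr22:41832855-41833104 (plus), SCD at chr10:100346983-100347232 (plus) and FADS1 at chr11:61817004-61817253 (minus). Each is printed 5′ to 3′ on the strand of its gene and ends at the base before the start. Capitals mark matches to CCAAT and TCACNCCA on either strand.
HMGCS1: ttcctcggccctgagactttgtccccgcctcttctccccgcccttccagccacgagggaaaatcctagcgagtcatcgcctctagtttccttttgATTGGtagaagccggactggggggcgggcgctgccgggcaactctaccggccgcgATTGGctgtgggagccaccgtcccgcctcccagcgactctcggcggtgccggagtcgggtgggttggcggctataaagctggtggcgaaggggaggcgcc
MVK: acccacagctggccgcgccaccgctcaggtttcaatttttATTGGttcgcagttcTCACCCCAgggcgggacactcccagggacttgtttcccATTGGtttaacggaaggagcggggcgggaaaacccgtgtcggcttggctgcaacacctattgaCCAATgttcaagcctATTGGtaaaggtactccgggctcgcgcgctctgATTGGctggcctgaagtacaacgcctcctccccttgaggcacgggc
NSDHL: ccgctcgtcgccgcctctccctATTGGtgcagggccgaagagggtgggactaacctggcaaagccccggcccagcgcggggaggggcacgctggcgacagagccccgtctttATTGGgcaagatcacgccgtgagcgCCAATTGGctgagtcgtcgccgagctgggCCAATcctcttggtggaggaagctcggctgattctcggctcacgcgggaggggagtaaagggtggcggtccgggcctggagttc
SREBF2: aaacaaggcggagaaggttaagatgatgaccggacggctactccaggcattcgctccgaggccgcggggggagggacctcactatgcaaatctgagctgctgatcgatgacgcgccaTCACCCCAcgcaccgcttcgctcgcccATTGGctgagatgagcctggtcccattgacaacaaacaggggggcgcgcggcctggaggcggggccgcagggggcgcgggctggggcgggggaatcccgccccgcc
SCD: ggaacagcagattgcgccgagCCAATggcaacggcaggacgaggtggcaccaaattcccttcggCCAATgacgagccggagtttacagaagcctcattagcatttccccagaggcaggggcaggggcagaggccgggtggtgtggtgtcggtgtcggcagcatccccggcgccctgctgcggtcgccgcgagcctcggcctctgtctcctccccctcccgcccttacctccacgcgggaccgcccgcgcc
FADS1: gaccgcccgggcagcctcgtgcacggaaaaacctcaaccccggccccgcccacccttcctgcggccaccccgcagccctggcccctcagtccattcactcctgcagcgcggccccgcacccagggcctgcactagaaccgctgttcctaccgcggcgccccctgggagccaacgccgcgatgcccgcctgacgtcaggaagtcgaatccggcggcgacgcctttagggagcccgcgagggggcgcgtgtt
CCAAT was found in 18 of the 29 promoters, in 12 of the 15 sterol enzymes and 2 of the 7 fatty acid enzymes with a sequence, against 33% of 27305 promoters. GGGCGG was found in 27 of 29, against 42.3%. TCACNCCA was found in 3 of 29, MVK (195 bases before the start), MSMO1 (156 bases) and SREBF2 (133 bases), against 3.18% of all promoters. The longer TCACNCCAC was found in SREBF2 alone among the members, against 0.875% of all promoters. These matches describe the letters of the window and not binding.

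In untreated EV cells, levels per length ran from 113 CPM per kb of exon for SCD, the stearoyl-CoA desaturase that makes oleate, to 1.87 CPM per kb for TM7SF2, a sterol reductase. SCD was followed by FASN, the fatty acid synthase, at 65.8 CPM per kb and by ACLY, which makes cytosolic acetyl-CoA from citrate, at 63.8 CPM per kb. Among the sterol enzymes the highest levels per kb were those of CYP51A1, the lanosterol demethylase, at 52.7 and of SQLE, the squalene epoxidase, at 39.8. After cytarabine in EV, SCD was at 67.8, FASN at 39.9 and ACLY at 54.4 CPM per kb. By the positions in the authors' table, 17 members overlap another gene, among them FADS1 with FADS2, TM7SF2 with VPS51 and ACAT2 with TCP1, and the handling of strand by the counting is not given in the sources used here. Those values may hold reads of the neighbour. Named copies of 4 members were in the table at low counts (HSD17B7P2 at 13 to 78 counts a library, CYP51A1P2 at 65 to 119 counts).

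More members fell than rose with cytarabine in each line, among them HMGCS1, SQLE, FASN and SCD. The EV line had 15 of 33 members lower and 5 higher, the WT line 13 lower and 7 higher, and the MUT line 18 lower and 6 higher (edgeR quasi-likelihood F test, Benjamini-Hochberg adjusted p under 0.05 over 18226 genes). Of all genes tested, 22.9% fell in EV, 22.7% in WT and 25.9% in MUT, and 26.1%, 26.3% and 30.4% rose. In either direction 49.1% of genes passed the test for EV, 49% for WT and 56.3% for MUT, so that passing it is common in these data. Among the 11813 genes at least as abundant as the lowest member, the shares that fell were 33.7%, 32.2% and 36.1%, and those that rose 25.1%, 26.4% and 29.9%. The members had a median log2 fold change of -0.20 for EV, -0.13 for WT and -0.26 for MUT, where all genes tested had 0.05, 0.03 and 0.05. The 3 cytarabine effects rest on separate sets of libraries.

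Across the lines, 12 members fell in all of EV, WT and MUT, a pattern shown by 16.4% of all genes tested. They were HMGCS1, MVK, PMVK, SQLE, CYP51A1 and TM7SF2 of the sterol enzymes, FASN, SCD and LPIN1 of the lipid enzymes, and the regulators SREBF1, SCAP and INSIG1. A rise in all 3 lines was shown by 4 members, HSD17B7, FADS1, STARD4 and NPC1, and by 18.9% of all genes. No test was passed in any line by 7 members (IDI1, FDPS, LSS, EBP, SC5D, ACACA and SREBF2), against 31.2% of all genes. When only the 6 libraries of a line were fitted, 8 of the 12 shared falls remained: CYP51A1, TM7SF2, LPIN1 and SREBF1 lost their MUT call, at edgeR adjusted p-values of 0.0646, 0.0897, 0.0975 and 0.0566, with log2 fold changes of -0.26, -0.65, -0.27 and -0.32. The same fits gave FDPS, LSS, EBP and ACACA a call in some line, and without untreated MUT replicate 3 just 1 of the 7 members had none. MVD, FDFT1 and MSMO1 passed the test in MUT alone, where they fell, a pattern of 4.41% of all genes, and whether MUT differed from the other lines is tested further below. The plot of the 33 log2 fold changes shows these patterns by class.

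**Figure D1:**
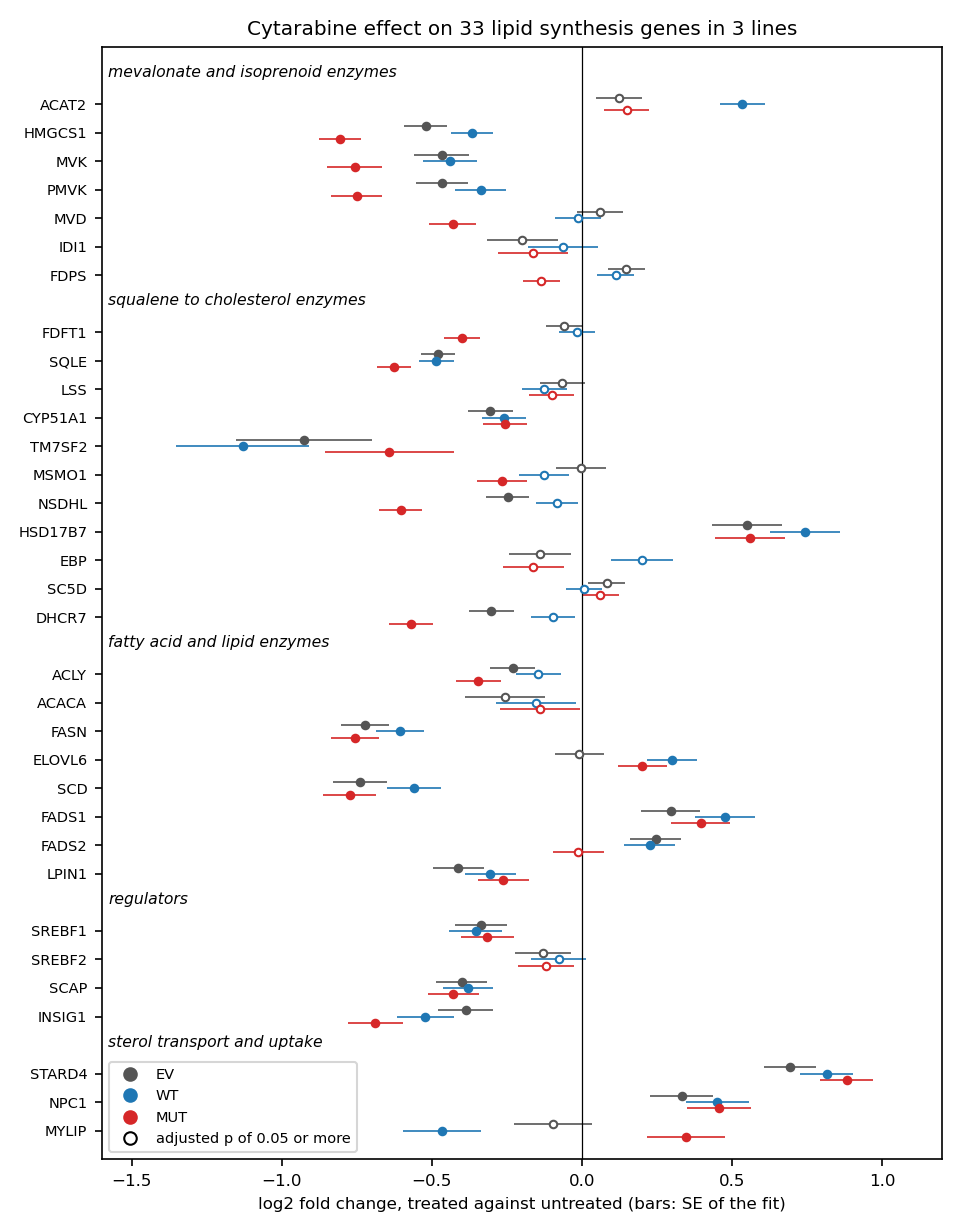
Log2 fold change with cytarabine (horizontal axis) for each of the 33 members, grouped by class, in the EV (grey), WT (blue) and MUT (red) lines. Each value compares 3 treated with 3 untreated libraries of a line. Bars are standard errors of the edgeR fit of all 18 libraries, which share 1 estimate of spread per gene. They do not show the spread of a single line, and open points have an adjusted p of 0.05 or more. HMGCS1, SQLE, FASN and SCD lie left of 0 in all 3 lines, from -0.81 to -0.37, and STARD4 lies right of 0 at 0.69 to 0.88.

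The first enzymes of the mevalonate pathway carried the larger falls of that segment. HMGCS1 makes HMG-CoA from acetoacetyl-CoA. In EV it was at 211, 204 and 204 CPM untreated and 139, 143 and 149.9 CPM treated, in WT at 194, 194 and 207 CPM untreated and 146, 161 and 154 CPM treated, and in MUT at 244, 219 and 249 CPM untreated and 123, 145 and 139 CPM treated. Every treated library lay below every untreated one of its line, and the lowest treated and highest untreated values were both in MUT. The log2 fold changes were -0.52 (SE 0.0709, edgeR adjusted p = 5.94e-06) in EV, -0.37 (SE 0.0707, adjusted p = 0.000249) in WT and -0.81 (SE 0.0709, adjusted p = 1.72e-08) in MUT. The kinases that follow, MVK (mevalonate kinase) and PMVK (phosphomevalonate kinase), fell in all 3 lines too. MVK was at 26.4 to 30.5 CPM in the untreated and 18.4 to 21.9 CPM in the treated libraries of EV and WT, with log2 fold changes of -0.47 and -0.44. In MUT it went from 30.6, 31.4 and 39.8 CPM to 19.6, 20.6 and 20.0 CPM, a log2 fold change of -0.76. PMVK changed by -0.47 in EV, -0.34 in WT and -0.75 in MUT on the log2 scale. No treated library of either gene reached the untreated range of its line.

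Further along the same segment the picture was mixed. MVD, the decarboxylase that makes isopentenyl pyrophosphate, was at 57.4, 68.3 and 73.2 CPM in untreated and 47.6, 51.6 and 48.3 CPM in treated MUT, a log2 fold change of -0.43 (SE 0.0770, edgeR adjusted p = 9.38e-05). Its log2 fold changes in EV and WT were 0.06 and -0.01, with overlapping ranges. IDI1, the isomerase, and FDPS, which makes farnesyl pyrophosphate, passed the test in no line, with log2 fold changes of -0.20 to -0.06 and -0.14 to 0.15. Without untreated MUT replicate 2 both fell in MUT, IDI1 at -0.35 (edgeR adjusted p = 0.00729) and FDPS at -0.19 (0.0248), and without untreated replicate 3 the value of IDI1 was -0.00086. ACAT2 makes the acetoacetyl-CoA that HMGCS1 uses and was the mevalonate gene that rose. In WT it was at 52.6, 52.9 and 51.5 CPM untreated and 73.9, 78.2 and 75.3 CPM treated, a log2 fold change of 0.53 (SE 0.0746, edgeR adjusted p = 7.86e-06). The log2 fold change of ACAT2 was 0.12 in EV, with overlapping ranges, and 0.15 in MUT, neither past the threshold, and the differences between lines did not pass it either (MUT against WT -0.39, adjusted p = 0.0829, and WT against EV 0.41, adjusted p = 0.143).

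From squalene to cholesterol, 4 of 11 enzymes passed the test in the same direction in all lines. SQLE, CYP51A1 and TM7SF2 fell and HSD17B7 rose. In all 3 lines, 16.4% of all genes tested fell and 18.9% rose, so that 4 of 11 is near the background. SQLE, a rate-limiting step of the lower pathway, was at 169, 168 and 178 CPM in untreated EV and 117, 126 and 126 CPM in treated EV. In WT it was at 153, 144 and 156 CPM untreated and 107, 109.7 and 107 CPM treated, and in MUT at 164, 169 and 166 CPM untreated and 106, 106 and 111 CPM treated. The groups did not overlap in any line, and the spread within groups was small beside the change. The log2 fold changes were -0.48, -0.48 and -0.63 (SE 0.0572, 0.0573 and 0.0573), with edgeR adjusted p-values of 1.19e-06, 1.07e-06 and 2.8e-08. CYP51A1 fell by less, with log2 fold changes of -0.30 (EV), -0.26 (WT) and -0.26 (MUT). TM7SF2 had the largest falls in EV and WT, with 5.72 to 7.24 CPM in untreated and 3.18 to 3.46 CPM in treated EV (log2 fold change -0.93, SE 0.225), and 6.28 to 8.73 CPM in untreated and 3.11 to 3.73 CPM in treated WT (-1.13, SE 0.221). In MUT it was at 8.02, 4.15 and 9.19 CPM untreated and 4.26, 5.36 and 4.14 CPM treated, so that untreated replicate 2 lay within the treated range. The MUT log2 fold change of -0.64 (SE 0.215, edgeR adjusted p = 0.0161) became -0.45 (adjusted p = 0.0855) without untreated replicate 3, -0.55 (0.0665) without untreated replicate 1, -0.59 (0.0554) without treated replicate 1 and -0.57 (0.0627) without treated replicate 3.

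HSD17B7, a sterol ketone reductase, was the exception in direction among the sterol enzymes that moved in all lines. It was at 11.3, 13.8 and 13.2 CPM in untreated and 17.2, 17.3 and 21.5 CPM in treated EV, and at 10.3 to 12 CPM in untreated and 18.3 to 20.0 CPM in treated WT. In MUT it was at 9.50 to 12.6 CPM untreated and 15.5 to 16.3 CPM treated. All treated libraries were above the untreated ones of their line, and the log2 fold changes were 0.55, 0.74 and 0.56 in EV, WT and MUT (SE 0.117, 0.117 and 0.118, with edgeR adjusted p-values of 0.000633, 2.91e-05 and 0.000478).

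The other squalene-to-cholesterol enzymes differed in which lines passed the test. FDFT1, which joins farnesyl units into squalene, was at 185, 190.1 and 211 CPM in untreated MUT and 147, 148 and 149 CPM in treated MUT (log2 fold change -0.40, SE 0.0598, edgeR adjusted p = 1.34e-05). In EV and WT the treated and untreated ranges of FDFT1 overlapped, with log2 fold changes of -0.06 and -0.02. NSDHL, which acts in the removal of the C4 methyl groups, was at 62.7 to 64.9 CPM in untreated and 49.4 to 58.2 CPM in treated EV (-0.25), at 60.8 to 70.6 CPM in untreated and 41.2 to 44.2 CPM in treated MUT (-0.60), both past the threshold, and had a log2 fold change of -0.08 in WT with overlapping ranges. DHCR7, the last reductase of cholesterol synthesis, followed the same order, at -0.30 in EV, -0.57 in MUT and, below the threshold of the test, -0.10 in WT. MSMO1, the C4 methyl oxidase, had a log2 fold change of -0.27 (edgeR adjusted p = 0.0109) in MUT, and -0.23 (adjusted p = 0.0549) without treated MUT replicate 3. It was -0.40 (0.000167) without untreated MUT replicate 2. LSS (lanosterol synthase), EBP (sterol isomerase) and SC5D (sterol desaturase) passed the test in no line, with log2 fold changes between -0.16 and 0.20. In MUT, EBP was at -0.16, and at -0.29 (edgeR adjusted p = 0.0141) without untreated replicate 1 and -0.0074 without untreated replicate 3, while LSS went from -0.10 to -0.19 (0.028) without untreated replicate 3.

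**Figure D2:**
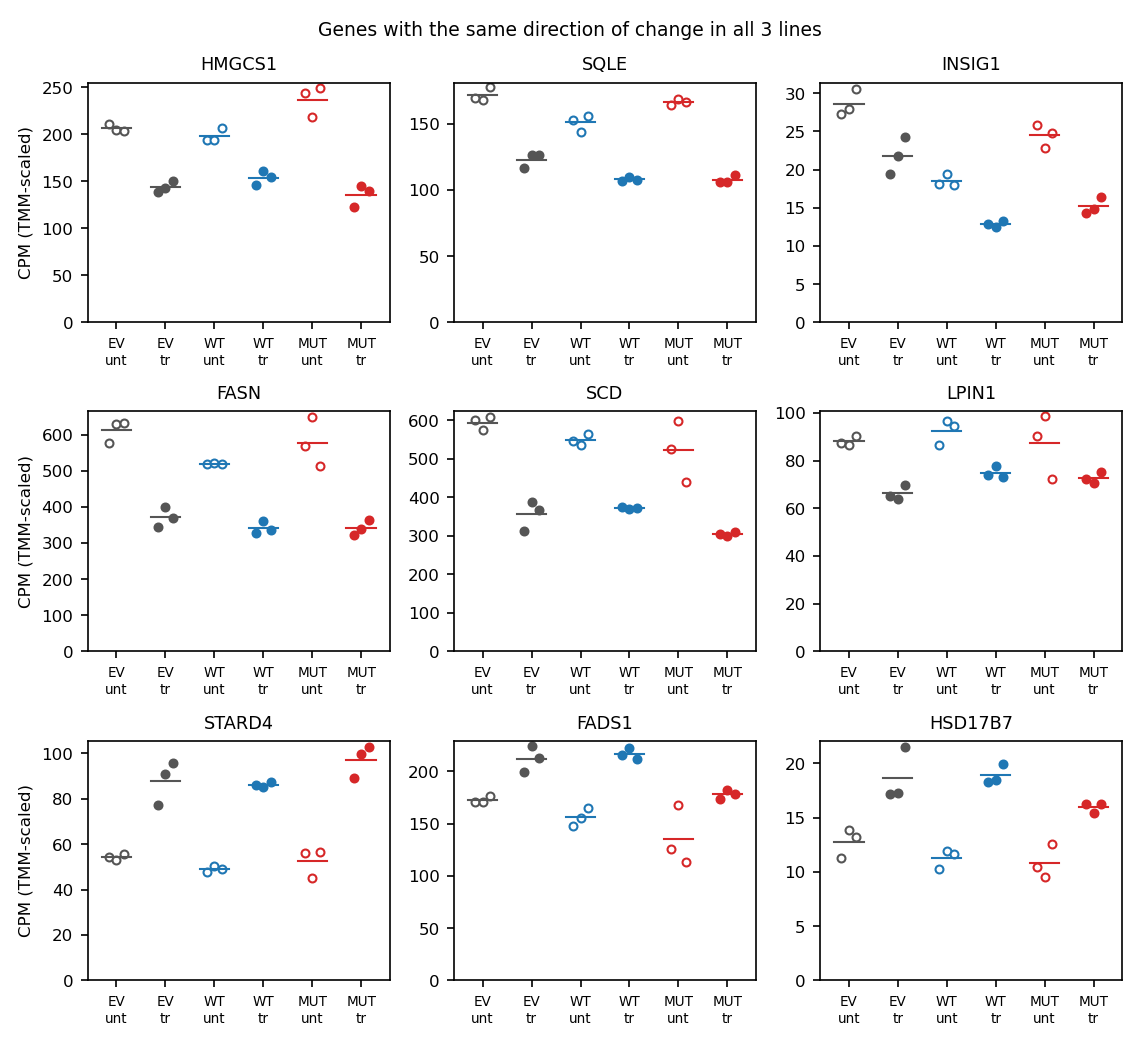
TMM-scaled CPM (vertical axes, from 0) of 9 members that moved the same way in all 3 lines, for each library, with EV in grey, WT in blue and MUT in red. Open points are untreated (unt) and filled points treated (tr) libraries, and the line is the mean of 3. HMGCS1, SQLE, INSIG1, FASN and SCD sit lower in treated libraries and STARD4, FADS1 and HSD17B7 higher, and LPIN1 in MUT overlaps between its groups.

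Among the fatty acid enzymes, the 2 with large falls were the synthase and the desaturase. FASN was at 578, 629 and 633 CPM in untreated and 345, 401 and 370.0 CPM in treated EV, and at 518, 521 and 519.8 CPM in untreated and 326, 362 and 335 CPM in treated WT. In MUT it was at 568, 648 and 514 CPM untreated and 323, 338 and 363 CPM treated. The groups did not overlap in any line, with log2 fold changes of -0.72 in EV (SE 0.0803, edgeR adjusted p = 5.17e-07), -0.61 in WT (SE 0.0802, 4.09e-06) and -0.76 in MUT (SE 0.0803, 1.9e-07). SCD was at 601, 573 and 607 CPM in untreated and 311, 388 and 367 CPM in treated EV, and at 545, 536 and 565 CPM in untreated and 374, 370.1 and 372 CPM in treated WT. In MUT the untreated libraries of SCD spread from 440.1 CPM in replicate 3 to 597 CPM in replicate 2, above the 299 to 309.7 CPM of the treated ones. The log2 fold changes of SCD were -0.74, -0.56 and -0.77 (SE 0.0894, 0.0891 and 0.0895). In MUT, SCD gave -0.70 without untreated replicate 2 and -0.91 without untreated replicate 3, past the threshold in both.

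The other lipid enzymes moved less, and in both directions. LPIN1, a phosphatidate phosphatase of glycerolipid synthesis, had log2 fold changes of -0.41 (EV), -0.31 (WT) and -0.26 (MUT), all past the threshold. In MUT, untreated replicate 3 of LPIN1 at 72.2 CPM lay within the treated range of 70.6 to 75.3 CPM, and without it the log2 fold change was -0.41 (edgeR adjusted p = 2.2e-05). ACLY fell in EV (-0.23) and MUT (-0.35). Its EV call was lost without treated EV replicate 1 (edgeR adjusted p = 0.052), treated replicate 3 (0.0592) or untreated replicate 3 (0.0609). ACACA, the acetyl-CoA carboxylase that commits acetyl-CoA to fatty acids, passed the test in no line (log2 fold changes -0.26, -0.15 and -0.14). Its untreated MUT libraries were at 119, 146 and 80.1 CPM, and the MUT value was -0.37 (edgeR adjusted p = 0.00107) without untreated replicate 3 and 0.03 without untreated replicate 2.

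The desaturases of polyunsaturated fatty acids and the elongase ELOVL6 rose in some or all lines. FADS1, the delta-5 desaturase, was at 170.5, 171 and 176 CPM in untreated and 199, 224 and 213 CPM in treated EV, and at 148, 155 and 165 CPM in untreated and 216, 223 and 212 CPM in treated WT. In MUT it was at 126, 168 and 113 CPM untreated and 173, 182 and 178 CPM treated. The treated libraries were above the untreated ones in each line, with log2 fold changes of 0.30 (edgeR adjusted p = 0.0182), 0.48 (0.000521) and 0.40 (0.00224). The MUT value of FADS1 was 0.25 (0.0211) without untreated replicate 3 and 0.54 (1.04e-06) without untreated replicate 2. FADS2, the delta-6 desaturase, rose in EV (0.25, adjusted p = 0.0219) and WT (0.23, 0.0338) and had a log2 fold change of -0.01 in MUT with overlapping ranges. Both EV calls depended on single libraries: without treated EV replicate 2, FADS1 gave 0.25 (adjusted p = 0.0687) and FADS2 0.17 (0.124), and FADS1 also lost its EV call without untreated EV replicate 1 (0.0546) or 2 (0.0534). FADS2 lost its EV call without untreated replicate 2 (0.082) or 3 (0.0675), and its WT call without treated replicate 1 (0.0667) or 3 (0.118) or untreated replicate 1 (0.09) or 2 (0.102). ELOVL6, which lengthens palmitate, was at 28.6 to 33.8 CPM in untreated and 28.6 to 35.3 CPM in treated EV (log2 fold change -0.01) and rose in WT from 21.3 to 23.3 CPM to 27.2 to 27.9 CPM (0.30, adjusted p = 0.00561). In MUT it was at 31.2 to 31.3 CPM untreated and 34.8 to 37.4 CPM treated (0.20, adjusted p = 0.041), a call lost in 12 of the 18 fits that left out 1 library, at adjusted p-values up to 0.137. The MUT call of ELOVL6 was lost too with DESeq2 (adjusted p = 0.116), the authors' factors (0.223), no filter (0.09) and only the groups compared (0.0944).

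Of the regulators, SREBF1, SCAP and INSIG1 fell in all 3 lines, and SREBF2 passed the test in none. SREBF1 had log2 fold changes of -0.34, -0.35 and -0.32 in EV, WT and MUT, close to each other, and in MUT 1 treated library at 86.0 CPM lay above the lowest untreated one at 83.8 CPM. SCAP, the escort of the precursors, was at 166 to 171 CPM in untreated and 119 to 143 CPM in treated EV, and changed by -0.40, -0.38 and -0.43 on the log2 scale. SREBF2 was at 289.5 to 307 CPM in untreated and 261 to 289.9 CPM in treated EV, with log2 fold changes of -0.13, -0.08 and -0.12. Its MUT value was -0.27 (edgeR adjusted p = 0.00548) without untreated MUT replicate 3, which was the lowest of that group at 229.7 CPM.

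INSIG1, the retention protein and itself a target of the pathway, was at 27.2, 27.9 and 30.5 CPM in untreated and 19.4, 21.7 and 24.2 CPM in treated EV. In WT it was at 18.1, 19.5 and 17.9 CPM untreated and 12.9, 12.5 and 13.2 CPM treated, and in MUT at 25.8, 22.8 and 24.8 CPM untreated and 14.3, 14.8 and 16.5 CPM treated. The groups did not overlap in any line, and untreated WT was about as low as the lowest treated EV library. The log2 fold changes were -0.39 (SE 0.0913, edgeR adjusted p = 0.00157), -0.52 (SE 0.0953, 0.000148) and -0.69 (SE 0.0929, 3.86e-06).

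Of the transport genes, STARD4 and NPC1 rose in all 3 lines. STARD4, a carrier of cholesterol through the cytosol, was at 54.5, 53.1 and 55.6 CPM in untreated and 77.2, 91.1 and 95.6 CPM in treated EV, and at 47.7, 50.2 and 49.2 CPM in untreated and 86.3, 85.1 and 87.4 CPM in treated WT. In MUT it was at 56.1, 45.1 and 56.6 CPM untreated and 89.0, 99.5 and 103 CPM treated. It had the largest rise of any member in each line, with no overlap, at log2 fold changes of 0.69, 0.82 and 0.88 (SE 0.0878, 0.0878 and 0.0876, with edgeR adjusted p-values of 2.52e-06, 3.41e-07 and 8.26e-08). NPC1, which exports cholesterol from lysosomes, rose by 0.33, 0.45 and 0.46 on the log2 scale, and its EV call (edgeR adjusted p = 0.0129) was lost without treated EV replicate 2 (0.0569) or untreated EV replicate 2 (0.054). In MUT, NPC1 gave 0.28 (0.00901) without untreated replicate 3. MYLIP, a ubiquitin ligase that limits uptake of lipoproteins, had a log2 fold change of -0.10 in EV, below the threshold, with opposite directions in WT and MUT, and is described with the differences between lines.

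Both branches were lower after cytarabine in each line. As the mean log2 CPM over its genes, the sterol branch was at 5.952 untreated and 5.773 treated in EV, 5.965 and 5.858 in WT, and 6.004 and 5.687 in MUT. The fatty acid branch was at 7.544 and 7.314 in EV, 7.404 and 7.307 in WT, and 7.442 and 7.243 in MUT. These levels are not per length and are compared only within a branch. The sterol branch thus changed by -0.18 (SE 0.0293 over the libraries) in EV, -0.11 (SE 0.0160) in WT and -0.32 (SE 0.0699) in MUT, and the fatty acid branch by -0.23 (SE 0.0550), -0.10 (SE 0.0199) and -0.20 (SE 0.122). In EV and WT the treated libraries lay below the untreated ones in both branches. In MUT this held for the sterol branch, while the fatty acid branch of untreated replicate 3 (7.235) lay within the treated range of 7.218 to 7.275. The MUT change of the fatty acid branch was -0.34 without untreated replicate 3 and -0.13 without untreated replicate 2, and that of the sterol branch -0.28 and -0.40. The mean over all genes tested, many less abundant than the members, was 3.383 to 3.452 in untreated and 3.548 to 3.650 in treated libraries. The WT changes were small beside the choice of scaling, which moved the median WT change of all genes by -0.0608 to 0.0461. With upper-quartile factors the WT sterol mean was 5.939 untreated and 5.879 treated.

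The shift of one branch against the other was small beside the spread of the libraries. Sterol minus fatty acid was -1.586, -1.541 and -1.651 in untreated and -1.500, -1.607 and -1.516 in treated EV. It was -1.448, -1.415 and -1.454 in untreated and -1.461, -1.461 and -1.425 in treated WT, and -1.474, -1.741 and -1.097 in untreated and -1.557, -1.534 and -1.575 in treated MUT. The untreated MUT values spread more widely than those of all the other groups together. The change of the difference with cytarabine was 0.05 (SE 0.0462) in EV, -0.01 (SE 0.0169) in WT and -0.12 (SE 0.187) in MUT. The MUT value turned to 0.05 without untreated replicate 3 and was -0.27 without untreated replicate 2. The WT value ran from -0.022 to 0.0019 with 1 of its libraries left out, and the EV value from 0.022 to 0.084.

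Calls by branch are given as counts, with shares of other genes after them. Of the 18 sterol enzymes, EV had 8 lower and 1 higher, WT 6 lower and 2 higher, and MUT 11 lower and 1 higher, with median log2 fold changes of -0.17, -0.09 and -0.33. Of the 8 fatty acid enzymes, EV had 4 lower and 2 higher, WT 3 of each, and MUT 4 lower and 2 higher, with medians of -0.24, -0.15 and -0.20. The shares that fell were 44.4%, 33.3% and 61.1% of the sterol and 50%, 37.5% and 50% of the fatty acid enzymes. Of the 11813 genes at least as abundant as the lowest member, 33.7%, 32.2% and 36.1% fell. Those that rose made up 25.1%, 26.4% and 29.9%. The falls of both branches in WT and the fatty acid rises in EV and MUT were near these shares. With treated EV replicate 2 left out, 0 fatty acid enzymes rose in EV, and with treated EV replicate 1 left out 2 sterol enzymes did. In MUT, 1 fatty acid enzyme rose in the 12 fits that lost the ELOVL6 call. The number of sterol enzymes that fell in MUT ran from 9 without treated MUT replicate 3 to 13 without untreated MUT replicate 2.

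**Figure D3:**
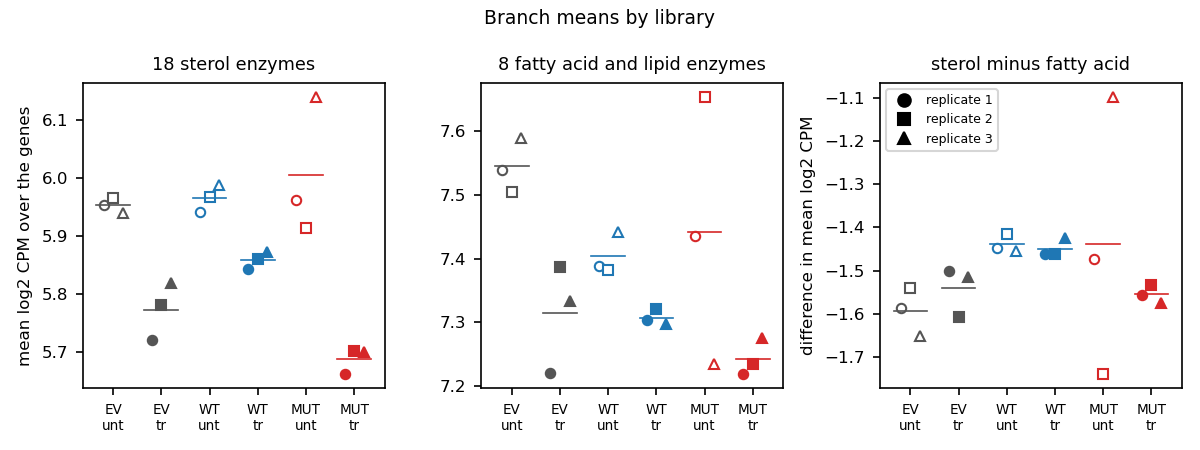
Mean log2 CPM over the 18 sterol enzymes (left), over the 8 fatty acid and lipid enzymes (middle) and their difference (right) for each of the 18 libraries. Circles, squares and triangles are replicates 1, 2 and 3, open points are untreated (unt) and filled points treated (tr), and lines are group means. In the right panel the 3 untreated MUT libraries range from -1.741 to -1.097.

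The branches moved against each other between the untreated MUT libraries. In replicate 3, 16 of the 18 sterol enzymes lay above the mean of the group and 8 of 8 fatty acid enzymes below it, with median deviations of 0.12 and -0.22 on the log2 scale. In replicate 2, 13 sterol enzymes lay below the mean and 8 of 8 fatty acid enzymes above it, with medians of -0.04 and 0.20. In replicate 1, 14 sterol enzymes lay below it and the fatty acid enzymes were split, 4 above and 4 below. The median coefficient of variation of the members was 12.4% in this group and 2.87% to 7.31% in the other 5.

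Exonic length moved with these deviations. It was taken as the union of all exons annotated for a gene in GENCODE v44 and is not the length of any 1 transcript. The median exonic length was 4.3 kb for the sterol and 9.77 kb for the fatty acid enzymes. Over the 11191 genes at least as abundant as the lowest member and with a length, the deviation of a library from its group mean had a Spearman rho with exonic length of -0.479 in untreated MUT replicate 3, 0.351 in replicate 2 and 0.251 in replicate 1, against -0.277 to 0.314 in the other 15 libraries. These are correlations across genes, which are not independent replicates. The log2 fold change with cytarabine had a rho with length of 0.101 (EV), 0.142 (WT) and 0.266 (MUT). With the genes cut by length into 4 equal bins, its median in MUT was -0.28 in the shortest and 0.12 in the longest bin, and in EV -0.15 and -0.02. The part of length in the branch values was not tested.

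**Figure D4:**
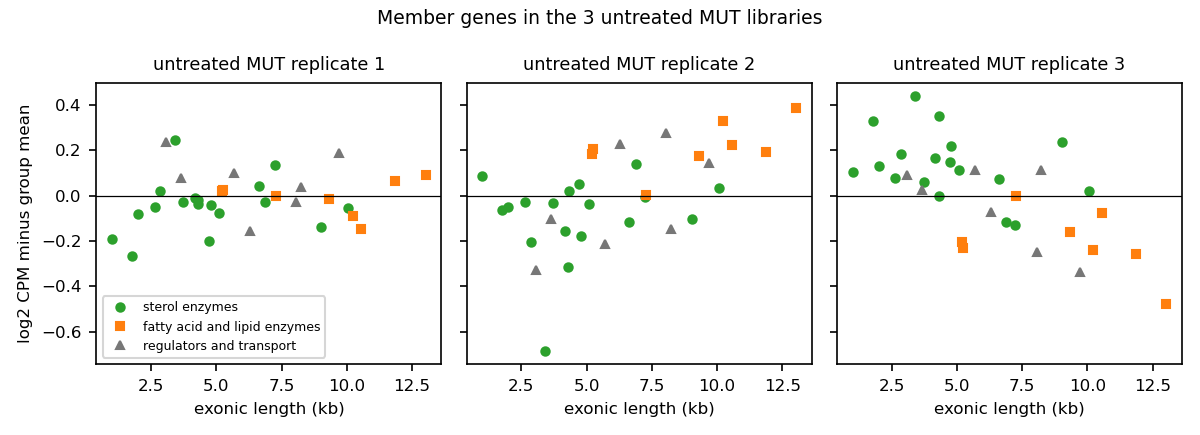
Deviation of each member from the mean of the untreated MUT group (log2 CPM, vertical axis) against its exonic length in kb (horizontal axis), in replicates 1, 2 and 3. Green circles are sterol enzymes, orange squares fatty acid and lipid enzymes, and grey triangles regulators and transport genes. The fatty acid enzymes lie above 0 in replicate 2 and below 0 in replicate 3, where 16 of 18 sterol enzymes lie above 0.

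Whether the lines responded differently was tested as the difference between their cytarabine effects. Between MUT and WT, 5 members differed, against 1.00% of all genes tested (0.510% higher and 0.494% lower). The sterol enzymes NSDHL, DHCR7, FDFT1 and HMGCS1 fell further in MUT, by 0.52, 0.47, 0.38 and 0.44 on the log2 scale (SE 0.0999, 0.104, 0.0843 and 0.0998, with edgeR adjusted p-values of 0.0195, 0.0331, 0.0331 and 0.0385). Of the sterol enzymes 14 of 18 had a difference below 0, with a median of -0.28, and of the fatty acid enzymes 6 of 8 were below 0, with a median of -0.12 and no call. Of all 18226 genes tested, 9173 had a difference below 0, with a median near 0. In the bin of shortest genes, the median cytarabine change was -0.275 in MUT and -0.147 in WT. In the bin of longest genes it was 0.116 and 0.0275. The part of length in the differences between lines was not tested. MYLIP differed the other way. It was at 9.76, 10.4 and 11.6 CPM in untreated and 7.70, 7.29 and 7.93 CPM in treated WT, and at 9.18, 6.16 and 8.28 CPM in untreated and 10.8, 9.72 and 9.63 CPM in treated MUT. The WT groups and the MUT groups did not overlap, in opposite directions, with log2 fold changes of -0.47 (edgeR adjusted p = 0.0053) and 0.35 (0.0283) and a difference of 0.81 (SE 0.182, adjusted p = 0.0362).

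These calls lay close to the threshold, and the size of the differences moved less than the calls did. Without treated MUT replicate 1 none of the 4 sterol enzymes passed, with -0.50 (adjusted p = 0.0655) for NSDHL, -0.45 (0.0986) for DHCR7, -0.38 (0.0924) for FDFT1 and -0.37 (0.115) for HMGCS1. DHCR7, FDFT1, HMGCS1 and MYLIP also lost their calls without any 1 of the untreated EV libraries, which are not part of the contrast, at adjusted p-values of 0.0512 to 0.063. With untreated MUT replicate 1, 2 or 3 left out, 9, 7 and 6 members differed between MUT and WT, where 810, 674 and 337 of all genes did, against 183 with all libraries. NSDHL passed in 21 of 25 alternative analyses and the other 4 genes in 11 or 12. With each of the untreated MUT libraries left out in turn, NSDHL gave -0.58 to -0.48, DHCR7 -0.56 to -0.44, FDFT1 -0.44 to -0.36 and HMGCS1 -0.53 to -0.42, all past the threshold. The rise of MYLIP within MUT was 0.16 (adjusted p = 0.267) without untreated MUT replicate 2, and that call was also lost without treated MUT replicate 1 (0.1) or untreated WT replicate 2 (0.0569), with DESeq2 (0.0613), the authors' factors (0.103), no filter (0.0559) and only the groups compared (0.135).

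Between MUT and EV, and between WT and EV, no member passed the test of a difference in effect by edgeR. The shares of all genes that passed were 0.214% (0.154% higher, 0.0604% lower) and 0.285% (0.143% each way). At an unadjusted p under 0.05 there were 12 and 3 members, where 15.8% and 9.96% of all genes were, so that 3 of 33 is near the background. The DESeq2 Wald test called 5 (FDFT1, FDPS, HMGCS1, MVD and NSDHL, further down in MUT) and 1 (ACAT2), where it called 3.99% and 0.820% of the genes to which it gave an adjusted p. With untreated MUT replicate 1, 2 or 3 left out, edgeR called 3, 4 and 1 members for MUT against EV, MVD in each, where it called 666, 335 and 101 of all genes. MVD had a difference between MUT and WT of -0.42 (edgeR adjusted p = 0.0679), so its fall in MUT alone was not shown to differ from WT by that test (DESeq2 gave -0.47, adjusted p = 0.00708).

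**Figure D5:**
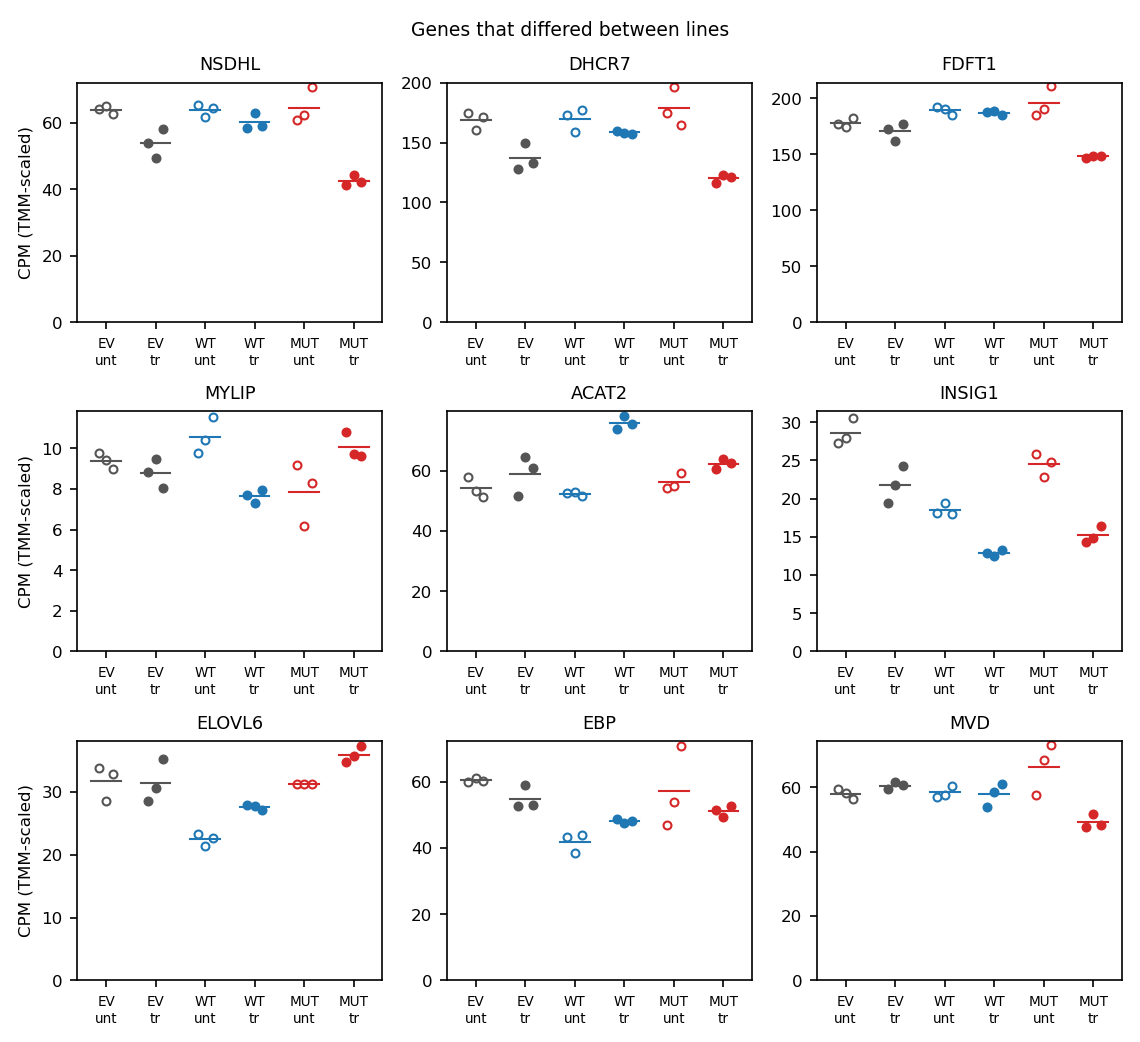
TMM-scaled CPM (vertical axes, from 0) of 9 members that passed a test between lines or in 1 line, for each library, coloured by line (EV grey, WT blue, MUT red), untreated (unt, open) and treated (tr, filled), with the mean of 3 as a line. Treated MUT is lowest for NSDHL (41.2 to 44.2 CPM), DHCR7 (116 to 123 CPM) and FDFT1 (147 to 149 CPM), and INSIG1 is lowest in WT.

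Without cytarabine, 15.2% of the members differed between WT and EV, 12.1% between MUT and EV and 18.2% between MUT and WT. For all genes these shares were 11.7%, 19.9% and 21.2%, so those of the members were near or below the background. With only the groups compared in the fit, 3 members were higher and 11 lower in WT than EV. The share of all genes in that fit is not given here. WT against EV gave 5 lower and 0 higher members, where 11.7% of all genes passed (4.30% higher, 7.36% lower). INSIG1 was at 27.2 to 30.5 CPM in EV and at 17.9 to 19.5 CPM in WT (log2 difference -0.62, SE 0.0922, edgeR adjusted p = 0.000116). EBP was at 60.0 to 61.0 CPM in EV and 38.6 to 43.8 CPM in WT (-0.53, adjusted p = 0.00199), and ELOVL6 at 28.6 to 33.8 CPM and 21.3 to 23.3 CPM (-0.50, adjusted p = 0.000434). For each of the 3 genes the WT libraries lay below those of EV. SREBF1 (-0.30, adjusted p = 0.0304) and SQLE (-0.18, adjusted p = 0.0414) were lower in WT too, but their calls were lost in 6 and 13 of the 18 fits that left out 1 library.

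MUT against EV gave 2 higher and 2 lower members untreated, where 19.9% of all genes passed (9.88% higher, 10.0% lower). MVK (0.32, edgeR adjusted p = 0.0186) and PMVK (0.29, 0.0199) were higher in MUT, and FADS1 (-0.35, 0.0177) and NPC1 (-0.39, 0.0154) lower. All of these calls were lost when only the 6 libraries compared were fitted, at adjusted p-values of 0.143 to 0.161, or without untreated EV replicate 3, at 0.057 to 0.0972. Without untreated MUT replicate 3, FADS1 gave -0.21 (adjusted p = 0.0901), NPC1 -0.22 (0.0723) and MVK 0.21 (0.058). With untreated MUT replicate 1, 2 or 3 left out, 4, 10 and 3 members differed, where 3849, 4386 and 3815 of all genes did.

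MUT against WT gave 4 higher and 2 lower members, where 21.2% of all genes passed (11.7% higher, 9.54% lower). ELOVL6 (0.48, edgeR adjusted p = 0.000467), EBP (0.45, 0.0046), INSIG1 (0.41, 0.00396) and HMGCS1 (0.26, 0.0135) were higher in MUT, and SC5D (-0.24, 0.00763) and MYLIP (-0.42, 0.0266) lower. Of these 6 calls, ELOVL6 passed in every alternative analysis run. When only the groups compared were fitted, EBP (edgeR adjusted p = 0.108), INSIG1 (0.0514), HMGCS1 (0.132), SC5D (0.0927) and MYLIP (0.163) lost their calls. HMGCS1 was also lost without untreated WT replicate 1 (adjusted p = 0.0583) and SC5D without untreated WT replicate 2 (0.104). MYLIP was also lost without untreated MUT replicate 2 (0.165), without untreated WT replicate 2 (0.0808) or 3 (0.115), and with the authors' factors (0.0507). EBP was at 0.29 (0.00841) without untreated MUT replicate 3. With untreated MUT replicate 1, 2 or 3 left out, 9, 10 and 11 members differed, where 4183, 4541 and 4037 of all genes did. The comparisons of lines share libraries, so these values stand side by side and are not counted as separate support.

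After cytarabine the treated MUT cells were lower than WT in 12 members and higher in 2, where 19.8% of all genes passed (10.4% higher, 9.48% lower). The 9 lower sterol enzymes were ACAT2, PMVK, MVD, FDPS, FDFT1, MSMO1, NSDHL, SC5D and DHCR7, and the 3 lower lipid enzymes SCD, FADS1 and FADS2. NSDHL was at 58.5, 63.1 and 59.2 CPM in treated WT and 41.2, 44.2 and 42.0 CPM in treated MUT (log2 difference -0.50, SE 0.0710, edgeR adjusted p = 5.47e-05). DHCR7 was at 160.0, 158 and 157 CPM in treated WT and 116, 123 and 121 CPM in treated MUT (-0.40, SE 0.0740, 0.000722), and FDFT1 at 188, 189 and 185 CPM and 147, 148 and 149 CPM (-0.34, SE 0.0597, 0.000488). All 3 genes were lower in every treated MUT library than in every treated WT library, and all 3 calls passed in every alternative analysis run. ELOVL6 (0.38) and MYLIP (0.39) were higher in treated MUT. Without treated MUT replicate 1 the lower members numbered 5, and with the authors' own scaling factors 7.

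Against treated EV, treated MUT was lower in 6 members (MVD, FDFT1, SQLE, MSMO1, NSDHL and INSIG1) and higher in 0, where 14.0% of all genes passed (6.85% higher, 7.13% lower). NSDHL was at 53.8, 49.4 and 58.2 CPM in treated EV, above all treated MUT libraries (-0.34, edgeR adjusted p = 0.00311). Treated WT was higher than treated EV in ACAT2 (0.36, edgeR adjusted p = 0.00212), PMVK (0.26, 0.0415) and CYP51A1 (0.24, 0.0321), and lower in INSIG1 (-0.76, 1.66e-05), SREBF1 (-0.32, 0.018) and SQLE (-0.19, 0.0294), where 16.5% of all genes passed (7.41% higher, 9.12% lower). INSIG1 in treated WT, at 12.5 to 13.2 CPM, was below all EV libraries, treated or not. Without treated MUT replicate 1, 2 members were lower in MUT than EV, and without treated EV replicate 1, ACAT2 remained as the 1 member higher in WT.

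Other genes of lipid metabolism, on lists that were chosen with results of these data known, are given for context. Of 12 genes of cholesterol transport, esterification and LXR signalling, 7 rose in EV, 6 in WT and 8 in MUT, and 1 fell in each line. ABCG1, an exporter of cholesterol, had log2 fold changes of 2.00, 2.09 and 1.97, and NR1H2, which encodes an LXR and was picked out after its values were seen, was the gene that fell (-0.28, -0.33 and -0.41). Of 10 genes of SREBP processing and turnover, 1 rose and 2 fell in each line. INSIG2, the partner of INSIG1, rose by 0.85, 0.76 and 0.79, opposite to INSIG1, and the falls were those of ERLIN1 and RNF139.

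Of 16 tested genes of fatty acid supply, elongation and activation, EV had 4 higher and 5 lower, WT 6 higher and 5 lower, and MUT 5 higher and 7 lower. ACSS2, which makes acetyl-CoA from acetate, rose by 1.12, 1.14 and 0.88, and SCD5, a second stearoyl-CoA desaturase, by 1.12, 1.25 and 1.42, while SCD itself fell in each line. Of 10 tested genes of glycerolipid synthesis and lipid droplets, 7 rose in EV and in WT, and MUT had 5 higher and 2 lower. PLIN2, a coat protein of lipid droplets, rose by 0.89, 0.80 and 0.53. Of 9 genes of fatty acid oxidation, 3 rose in EV, 5 in WT and 4 in MUT, where 2 fell, and PDK4, which limits entry of pyruvate into the mitochondrial cycle, rose by 2.42, 1.95 and 2.72 on the log2 scale. These counts stand beside the 26.1%, 26.3% and 30.4% of all genes that rose in EV, WT and MUT. The shares of all genes that fell were 22.9%, 22.7% and 25.9%.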

How the data were processed

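Total RNA of U2OS cells was sequenced after a NEBNext Ultra library preparation, per the labels' protocols. The authors deposited estimated counts per gene symbol, not normalized (70.4% of the values were whole), and a second table of normalized signal. Each signal value was the deposited estimated count multiplied by a library factor, with 1 added (largest relative deviation 7.29e-06), and the table served here for those factors alone. CASAVA, STAR 2.6.1d and hg38 are named in the submitters' processing notes, with no role or order. The counting tool, strand handling and vehicle are not given in the sources used here. All 33 member positions in the table overlapped the GENCODE v44 annotation of GRCh38.

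Groups and replicate numbers came from the sample titles. Estimated counts were rounded and fitted in edgeR 4.0.16 (R 4.3.3) with filterByExpr, TMM scaling and 6 group means over 18 libraries, which left 18226 genes, and quasi-likelihood F tests of 12 contrasts were adjusted over them by Benjamini-Hochberg at 0.05. The SE is the absolute log2 fold change over the square root of F, and a prior count of 2 went into log2 CPM. Alternatives were DESeq2 1.42.0, other scalings and filters, fits of only the groups compared, a replicate block and leaving out each library. The procedure was tested on simulated data for the cytarabine effect in EV (17805 genes), where 78% of log2 changes of 0.5 and 98% of log2 changes of 1 were recovered and 5.38% of calls were false. Only 100 genes per size of change were altered, all in treated EV, far fewer than were called in the data. The simulation therefore does not cover the MUT contrasts or the differences between effects. Replicates differed by more than sampling noise in every pair, so each counts once.

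All members could be named. Genes of the other pathway lists were named only among the 3 with the largest absolute change past the threshold in a list, except NR1H2, named as the 1 gene of its list that fell, after its values were seen. The members and lists were chosen with earlier results of these data known.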

Additional observations from a re-analysis of the deposited data

Results flagged for a closer look

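For 5 members the change with cytarabine differed between the MUT and WT lines by a test of the difference itself (edgeR quasi-likelihood F test, Benjamini-Hochberg adjusted over 18226 genes, 3 libraries in each of the 4 groups). The log2 fold change of NSDHL in MUT minus that in WT was -0.52 (adjusted p = 0.0195), with -0.60 in MUT and -0.08 in WT. DHCR7 differed by -0.47 (0.0331), with -0.57 and -0.10. HMGCS1 differed by -0.44 (0.0385), with -0.81 and -0.37. FDFT1 differed by -0.38 (0.0331), with -0.40 and -0.02. MYLIP differed by 0.81 (0.0362), with 0.35 and -0.47. Not one of these 5 calls held in all 25 alternative analyses. The effects in MUT and WT share no library, but groups of 3 are too small to tell which library stands far from its group. The untreated MUT group, whose libraries stood apart from one another, enters all 5 differences. All 5 passed with each untreated MUT library left out in turn, and none passed without treated MUT replicate 1. The cause of these differences was not tested.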

How the results depend on the processing

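No call on a member changed direction under any alternative run. Of the values that did not pass the threshold, 11 of 35 cytarabine effects, 35 of 94 differences between effects, 30 of 84 untreated and 21 of 73 treated line differences changed sign in at least 1 alternative, among them ACACA in MUT, and so did the shift of one branch against the other in MUT and WT. Of the calls on single members, 51 of 64 cytarabine effects, 0 of 5 differences between effects, 4 of 15 untreated and 9 of 26 treated line differences were past the threshold in every alternative. Under other scalings the median cytarabine change of all genes moved by -0.0847 to 0.0762 (log2), and the share of called genes that were higher was 53.2% (EV), 53.6% (WT) and 54% (MUT) with TMM, 45.2%, 46.8% and 46.6% with the authors' factors and 61.6%, 58.6% and 57.8% with upper-quartile factors.

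Counts of members that moved were as follows, and the cause was not tested. With DESeq2, 2 sterol enzymes rose in EV and 1 fatty acid enzyme rose in MUT, 5 members fell further in MUT than EV and 8 further than WT, 1 rose further in WT than EV, and 6 and 7 were higher in untreated MUT than EV and WT. With upper-quartile factors, 4 sterol enzymes rose in EV and 2 in MUT, and 1 member fell further in MUT than EV. With a mean of at least 50 counts, 3 sterol enzymes rose in EV and 2 in MUT, 2 members fell further in MUT than EV, and 5 were higher in untreated MUT than EV. With the authors' factors, 0 fatty acid enzymes rose in EV and 1 in MUT, 1 member was lower in untreated MUT than WT, and 7 in treated MUT than WT. With no filter on low counts, 1 fatty acid enzyme rose in MUT, 0 members rose further in MUT than WT, 3 were lower in treated MUT than EV and 1 higher in treated MUT than WT. With only the groups compared, 4 sterol enzymes rose and 5 fatty acid enzymes fell in WT, 1 fatty acid enzyme rose in MUT, 0 members rose and 1 fell further in MUT than WT, and 1 rose further in WT than EV. The same fits gave 0 higher and 0 lower in untreated MUT than EV, 3 higher and 11 lower in untreated WT than EV, 1 higher and 0 lower in untreated MUT than WT, and 4 higher in treated MUT than WT.

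Branch means moved by more than 1 SD of the replicates in some groups. With upper-quartile factors the sterol mean was 5.917 in untreated EV, 5.939 in untreated WT and 5.879 in treated WT, and the fatty acid mean 7.328 in treated WT. With the authors' factors the sterol mean was 5.987 in untreated EV, 5.814 in treated WT and 5.659 in treated MUT, and the fatty acid mean 7.263 in treated WT. With regulators and transport genes added to the sterol branch it was 5.911 in untreated EV, 5.869 in untreated WT and 5.771 in treated WT, and its difference from the fatty acid branch was -1.535 in untreated and -1.536 in treated WT.

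With 1 library left out at a time, the sterol enzymes that rose numbered 1 to 2 in EV, 2 to 3 in WT and 1 to 2 in MUT, and those that fell 8 to 9, 6 and 9 to 13. The fatty acid enzymes that rose numbered 0 to 2 in EV, 2 to 3 in WT and 1 to 2 in MUT, and those that fell 3 to 5, 3 to 4 and 4 to 5. Members that differed in effect numbered 0 to 4 lower for MUT against EV, 0 to 8 lower and 0 to 1 higher for MUT against WT, and 0 to 1 higher for WT against EV. Untreated, MUT against EV gave 0 to 5 higher and 0 to 5 lower, WT against EV 0 to 1 higher and 3 to 6 lower, and MUT against WT 3 to 8 higher and 0 to 3 lower. Treated, MUT against EV gave 0 to 1 higher and 2 to 12 lower, WT against EV 1 to 5 higher and 1 to 4 lower, and MUT against WT 1 to 2 higher and 5 to 14 lower. The sterol mean ran from 5.943 to 5.965 in untreated EV and the fatty acid mean from 7.294 to 7.313 in treated WT.

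The main fit did not pair samples by replicate number, and the labels do not say whether libraries of the same number shared a batch. Same-numbered treated and untreated libraries of a line had correlations of their deviations from -0.036 to 0.326 across genes, and 5 of 9 libraries correlated best with their own number. With a replicate block, 2 calls on members were lost, PMVK in treated WT against EV (0.27, edgeR adjusted p = 0.0516) and FDPS in treated MUT against WT (-0.18, 0.0538), and no count moved by over 1.5 times.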
